A study of Homo sapiens with 40 samples.

Results

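The HIRA+HJURP double knockdown was compared with the HJURP and the HIRA single knockdown by the positions of replicated CENP-A peaks in SW480 cells. The peaks of the 3 conditions, 1582 in the double, 940 in the HJURP and 848 in the HIRA knockdown, made up 3370 of the 5748 peaks deposited for all 6 conditions. A single-knockdown site was called lost when it shared no base with a double-knockdown peak, kept when it shared bases with exactly 1, and split when it shared bases with 2 or more. A double-knockdown peak was called double-only when it shared no base with either single-knockdown list.

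SW480 is an established human colon cancer line. The study depleted CENP-A and H3.3 chaperones in it and mapped CENP-A by ChIP-Seq, with an input for each ChIP. The small interfering RNAs were delivered by electroporation and cells were taken after 72 hours. Chromatin was released by micrococcal nuclease without crosslinking and precipitated with ACA, a human serum against centromere proteins. The control cells, called untreated in the sample labels, received a control small interfering RNA according to the study's results. The HJURP, HIRA, DAXX and control conditions had 4 ChIP libraries each, and the HIRA+HJURP and HIRA+DAXX conditions had 2 each. Each condition was deposited as 1 merged list without heights, scores, read counts or replicates, so the depth behind a peak is unknown, no value has replicate error and no difference could be tested. Intervals given below are 95% Wilson intervals and cover counting error only.

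CENP-A is the histone H3 variant that marks centromeres. HJURP is the chaperone that deposits it there. HIRA is a chaperone of another variant, H3.3, which it places along the chromosome arms independently of DNA replication, and DAXX works with ATRX to place H3.3 at repeats near centromeres and at telomeres. Human centromeres consist of alpha satellite, a tandem array of monomers, some of which carry the CENP-B box bound by the protein CENP-B. Satellites built from repeats of GGAAT lie beside many of these arrays.

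Stretches of 300 bases from 4 sites show what the classes look like in sequence, read from the plus strand of GRCh37, whose chromosomes are those of hg19. Among sites near centromeres they are the HJURP knockdown site with the most pieces, the kept HJURP knockdown site with the most shared bases and the widest lost HJURP knockdown site. The arm site is the widest, by the width of its HJURP knockdown site, of those lost from both lists in a stretch of chromosome 12. That stretch was chosen after values were seen. Capitals mark bases inside the named peak. In the first they mark 2 double-knockdown peaks with a gap between them inside an HJURP knockdown site of 6560 bp that held 9 double-knockdown peaks. In the next they mark the start of the double-knockdown peak that covered 99.9% of a kept HJURP knockdown site of 3142 bp. The last 2 show the left edge of a lost HJURP knockdown site, with that site in capitals. At the arm site the lost HIRA knockdown site begins before the printed stretch, so its lower-case bases lie inside that site. Only the arm site, in an intron of the protein-coding gene LMNTD1, lay in an annotated gene.
Split HJURP knockdown site, chr16:33974406-33974705: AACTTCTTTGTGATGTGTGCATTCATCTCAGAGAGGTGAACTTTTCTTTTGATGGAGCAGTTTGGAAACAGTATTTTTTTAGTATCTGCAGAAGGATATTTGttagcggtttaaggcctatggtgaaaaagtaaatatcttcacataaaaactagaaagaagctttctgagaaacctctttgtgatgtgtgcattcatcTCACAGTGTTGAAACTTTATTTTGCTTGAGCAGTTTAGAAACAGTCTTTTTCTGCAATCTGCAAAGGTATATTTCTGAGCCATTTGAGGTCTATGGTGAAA
Kept HJURP knockdown site, chr10:38815545-38815844: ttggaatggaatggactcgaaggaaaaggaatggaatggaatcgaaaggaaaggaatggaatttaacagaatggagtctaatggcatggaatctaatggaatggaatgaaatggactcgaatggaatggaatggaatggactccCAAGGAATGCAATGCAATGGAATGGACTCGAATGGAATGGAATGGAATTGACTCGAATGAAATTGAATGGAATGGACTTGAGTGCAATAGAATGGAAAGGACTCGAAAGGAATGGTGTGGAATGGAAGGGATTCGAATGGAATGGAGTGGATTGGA
Lost HJURP knockdown site, chrX:61718291-61718590: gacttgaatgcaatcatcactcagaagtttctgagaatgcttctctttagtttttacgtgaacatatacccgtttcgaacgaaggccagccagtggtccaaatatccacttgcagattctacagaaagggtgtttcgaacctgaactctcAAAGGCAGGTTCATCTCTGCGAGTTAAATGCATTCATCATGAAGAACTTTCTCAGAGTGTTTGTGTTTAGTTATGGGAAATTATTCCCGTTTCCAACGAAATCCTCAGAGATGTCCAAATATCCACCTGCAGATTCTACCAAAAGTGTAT
Arm site lost from both single-knockdown lists, chr12:25695795-25696094: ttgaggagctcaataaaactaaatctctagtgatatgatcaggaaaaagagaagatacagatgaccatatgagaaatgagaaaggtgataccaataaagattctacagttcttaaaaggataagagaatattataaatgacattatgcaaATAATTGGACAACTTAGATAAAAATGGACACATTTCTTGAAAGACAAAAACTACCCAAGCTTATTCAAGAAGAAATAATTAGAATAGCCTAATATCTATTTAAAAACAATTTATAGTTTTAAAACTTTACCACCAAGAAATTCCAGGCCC
The stretch from the kept site held 22 copies of GGAAT on either strand. The stretch from the lost HJURP knockdown site held 2 CENP-B boxes, and none of the other 3 held any. These counts include lower-case bases, and the 2 boxes lie on either side of the edge of the lost site.

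By the rule of a single shared base, most sites of either single knockdown were found again in the double knockdown. Of the 940 HJURP knockdown sites, 419 were kept, 253 were split and 268 were lost, a lost share of 28.5% (25.7% to 31.5%). Of the 848 HIRA knockdown sites, 396 were kept, 183 were split and 269 were lost, or 31.7% (28.7% to 34.9%). Among the 1582 double-knockdown peaks, 385 were double-only, a share of 24.3% (22.3% to 26.5%). The remaining double-knockdown peaks divided into 705 that touched both single-knockdown lists, 338 that touched the HJURP list alone and 154 that touched the HIRA list alone. These shares depend on the overlap rule and on width. When at least 50% of a site had to be covered, 53.1% of HJURP and 56.1% of HIRA knockdown sites were lost, so most were no longer found. With only peaks at least 500 bp wide, 58.4% and 60.7% were lost, 10.9% and 6.55% were split and 2.86% of double-knockdown peaks were double-only. Extension of all peaks by 500 bp on each side gave 58.8% and 53.3% split and 14.6% double-only, and merging within 1000 bp gave 13.1% and 7.22% split.

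In bases the classes had other weights. Split sites were 26.9% of HJURP knockdown sites and 50.9% of their bases, while lost sites held 15.7% of the bases. In the HIRA knockdown, split sites held 42.6% of the bases and lost sites 21.4%. The double-only peaks were short, with a median width of 156 bp, and held 9.92% of the bases of the double-knockdown list. The 705 double-knockdown peaks that touched both single lists had a median width of 348 bp and held 62.4% of the bases. The median width was 274 bp in the whole double-knockdown list, against 775.5 bp in the HJURP and 711.5 bp in the HIRA knockdown list. The HIRA+DAXX list, also from 2 libraries, had a median width of 273.5 bp, and the control and DAXX lists, from 4, had medians of 790 bp and 874.5 bp. Replicate number and condition cannot be told apart in the double knockdowns, and the replication rule of the study's methods asks for more replicates than a double knockdown had, so the classes compare lists that cannot have passed the same filter. The study also sampled reads to equal depth, read mode and library number and compared peak coverage. Those sampled lists were not among the files used, and the part of depth and read mode in the classes was not tested here.

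The same sites were also looked up in the other lists. HJURP knockdown sites were lost from the HIRA+DAXX list at 52.6% (49.4% to 55.7%), from the DAXX list at 19.4% and from the control list at 66.2%. HIRA knockdown sites were lost from the HIRA+DAXX list at 42.6% (39.3% to 45.9%), from DAXX at 25.1% and from control at 56.4%. Both lists from 2 libraries split more sites than any list from 4. The HIRA+HJURP list split 26.9% of HJURP knockdown sites and the HIRA+DAXX list 16.6%, while the DAXX list, the highest of those from 4 libraries, split 7.23%.

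Split sites were long single-knockdown sites in which the double knockdown left several shorter peaks close together. Of the 253 split HJURP knockdown sites, 173 held 2 double-knockdown peaks, 47 held 3 and 33 held 4 or more. The gaps between neighbouring pieces had a median of 128 bp in HJURP and 126 bp in HIRA knockdown sites. The pieces covered a median of 67.4% of a split HJURP site and 65.8% of a split HIRA site. In kept sites the single double-knockdown peak covered a median of 59.3% of the HJURP site and 62.6% of the HIRA site. It lay wholly inside the site in 66.6% of kept HJURP sites and was wider than the site in 13.8%. The reverse of splitting was rarer, with 27 double-knockdown peaks that joined 2 or more HJURP knockdown sites and 25 that joined 2 or more HIRA knockdown sites.

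Over all locations, wider sites were lost less often and split more often. Among HJURP knockdown sites under 500 bp, 40.5% were lost (34.6% to 46.6%) and 1.59% were split. From 2000 bp upward, 2.86% were lost (1.12% to 7.12%) and 76.4% were split. HIRA knockdown sites ran from 41.6% lost in the narrowest group to 7.37% in the widest (3.61% to 14.4%). The plot of classes by width shows the lost share falling over the 4 width groups of both knockdowns while the split share rose. A wider site has room for more peaks and more bases to share, so the classes are by construction not independent of width. The order of the lost share did not hold at each location. In the centromere bands it was higher from 500 to under 1000 bp than below 500 bp, 33.3% against 23.5% in the HJURP and 26 of 65 against 26 of 83 in the HIRA knockdown, with overlapping intervals. On the other arm it was 66.7% below 500 bp and 69.4% from 500 to under 1000 bp in the HJURP knockdown. In the HIRA knockdown the order held on the other arm. The counts lost there were 39 of 52, 28 of 39, 14 of 21 and 1 of 3 from narrowest to widest, with overlapping intervals.

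**Figure D1:**
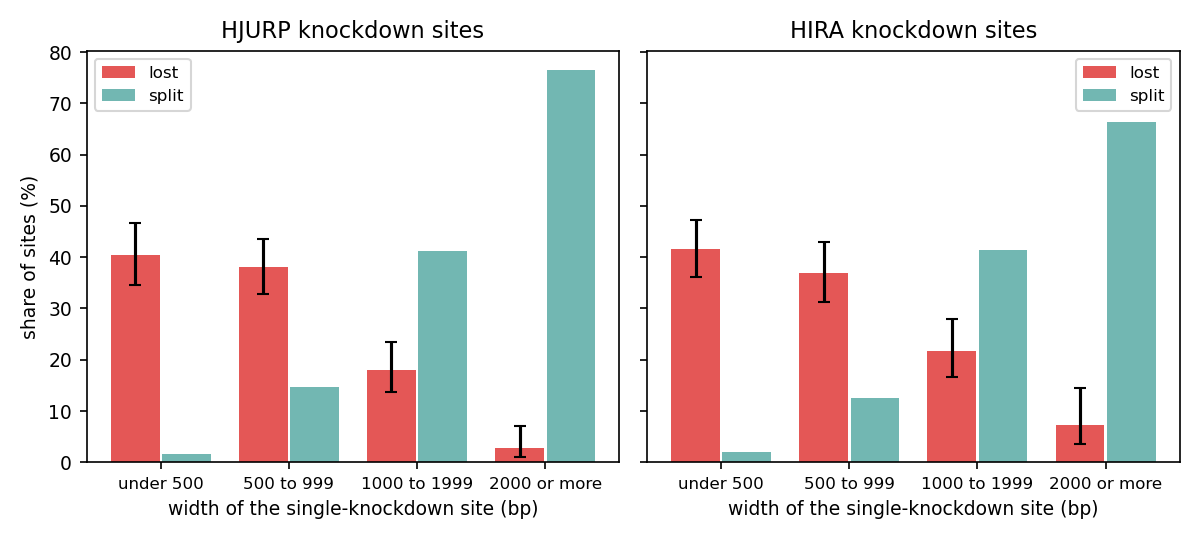
Share of HJURP (left) and HIRA (right) knockdown sites lost and split in the double knockdown, in percent, by the width of the site in bp. Error bars are 95% Wilson intervals of the lost share, which fell from 40.5% to 2.86% in the HJURP knockdown.

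The 4 locations held the classes in different shares. Outside the 8q24 band, the centromere bands and the 5 Mb on either side of the reference's centromere gaps, on what is called here the other arm, 58 of 93 HJURP knockdown sites were lost, or 62.4% (52.2% to 71.5%), and 82 of 115 HIRA knockdown sites, or 71.3% (62.5% to 78.8%). In the centromere bands the lost shares were 23.7% (18.1% to 30.5%) and 29.0% (23.2% to 35.5%). Pericentromeric sites, within 5 Mb of a gap but outside the bands, had lost shares of 22.5% (18.1% to 27.6%) and 30.3% (25.8% to 35.1%). In 8q24, 27.2% of the HJURP (22.9% to 31.9%) and 9.62% of the HIRA knockdown sites (5.91% to 15.3%) were lost. Double-only peaks were 55.0% of the double-knockdown peaks on the other arm, 33.2% in the bands, 22.6% in pericentromeric sequence and 11.8% in 8q24.

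**Figure D2:**
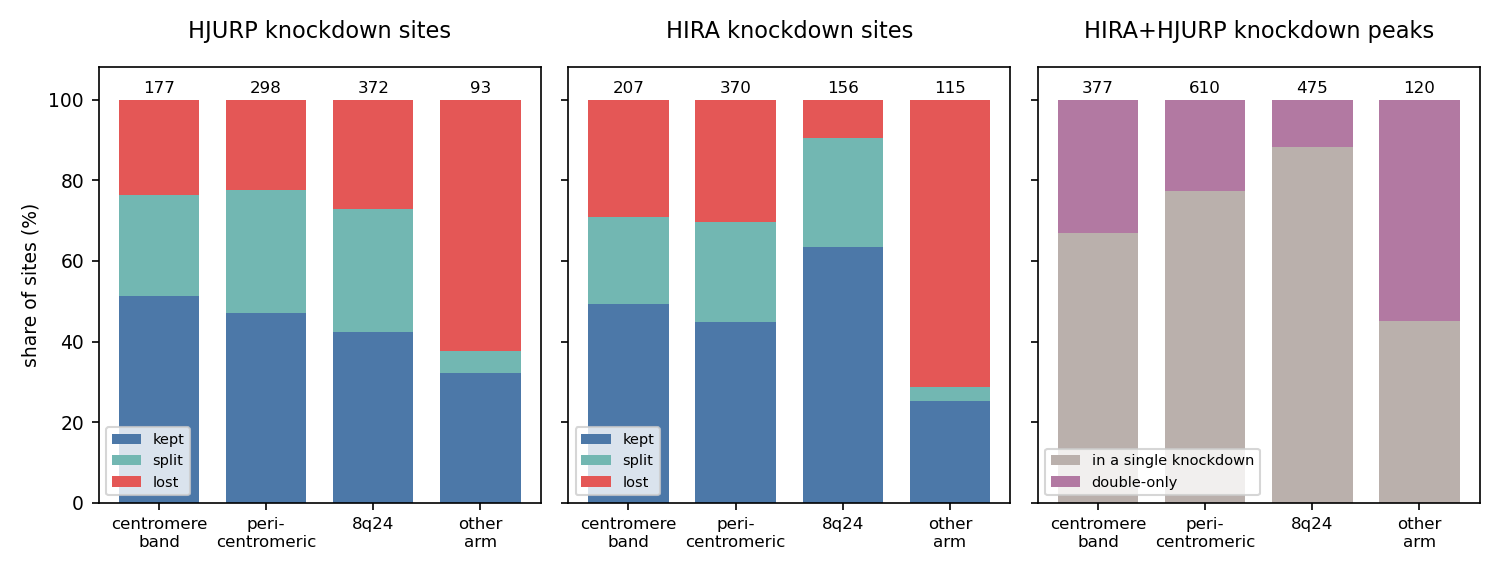
Share of sites in each class, in percent, by location, for HJURP knockdown sites, HIRA knockdown sites and HIRA+HJURP knockdown peaks. Numbers above the bars are sites. The lost and double-only shares were highest on the other arm, at 62.4%, 71.3% and 55.0%.

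Whether a site was shared by the single knockdowns went with its class. Of the HJURP knockdown sites that touched a HIRA knockdown site, 96 of 540 were lost, or 17.8% (14.8% to 21.2%), against 172 of 400 others, or 43.0% (38.2% to 47.9%). HIRA knockdown sites that touched the HJURP list were lost at 17.4% (14.5% to 20.8%) and the others at 60.7% (54.9% to 66.3%). Shared sites were also wider, with medians of 855.5 bp against 686.5 bp among HJURP and 844.5 bp against 500.5 bp among HIRA knockdown sites. Base by base, 64.8% of the 633 kb covered in both single knockdowns was covered in the double knockdown. Of the bases covered in the HJURP knockdown and not in the HIRA knockdown, 42.0% were covered in the double, and of those covered in the HIRA and not in the HJURP knockdown, 17.7%.

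8q24 is the band of the oncogene MYC, which encodes a transcription factor, and of the lncRNA genes PCAT1, CASC19, CASC8, LINC00861 and LINC02964. The study reports that the MYC locus is amplified in SW480 cells, with more copies per cell after HJURP knockdown. The lists carry no copy number, so its part in the shares below was not tested. The double knockdown covered more of the single-knockdown bases in 8q24 than at any other location. Of the bases in both single knockdowns it covered 84.5% in 8q24, against 54.2% in the centromere bands, 57.0% in pericentromeric sequence and 43.6% on the other arm. It covered 49.1% of the 360.1 kb that the HJURP but not the HIRA knockdown covered in 8q24, against 26.5% in the centromere bands, 23.6% in pericentromeric sequence and 15.7% on the other arm. For bases of the HIRA but not the HJURP knockdown, 34.9% were covered in 8q24 and 26.3%, 15.8% and 5.75% at the other locations. These shares were not matched for width. Shared HJURP knockdown sites had a median of 1685 bp in 8q24 and 649, 746.5 and 726 bp elsewhere. Below 500 bp, 60.4% of HJURP knockdown sites were lost in 8q24 (46.3% to 73.0%). The share was 23.5% in the bands (15.0% to 34.9%), 29.7% in pericentromeric sequence (21.3% to 39.7%) and 66.7% on the other arm. For HIRA knockdown sites it was 28.0% in 8q24, 31.3% in the bands and 37.7% in pericentromeric sequence, with overlapping intervals. HJURP knockdown sites in 8q24 that touched a HIRA knockdown site were lost in 6 of 119 cases, or 5.04% (2.33% to 10.6%), and the others in 95 of 253, or 37.5% (31.8% to 43.7%). No peak of the 3 lists lay in MYC on chromosome 8 from 128747680 to 128755197. The nearest HJURP knockdown site was 24.7 kb from the gene, the nearest double-knockdown peak 71.4 kb and the nearest HIRA knockdown site 373 kb.

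Upstream of MYC, 66 of 265 HJURP knockdown sites were lost, and downstream 35 of 107. Of the HIRA knockdown sites, 12 of 119 were lost upstream and 3 of 37 downstream. The double knockdown had 50 double-only peaks among its 361 peaks upstream and 6 among 114 downstream. The map of 8q24 shows kept, split and lost sites mixed along most of the band. Downstream of the gene a run of 9 lost HJURP knockdown sites had no kept or split site and no HIRA knockdown site among them. A double-only peak of 233 bp lay within this run, right beside a lost site. A few lost sites upstream stood alone. Lost HJURP knockdown sites in 8q24 had a median distance of 1350 bp to the nearest double-knockdown peak, and 93.1% lay within 10 kb of one. PCAT1 held 71 kept, 61 split and 38 lost HJURP knockdown sites and 23 double-only peaks, more of each class than any other gene.

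**Figure D3:**
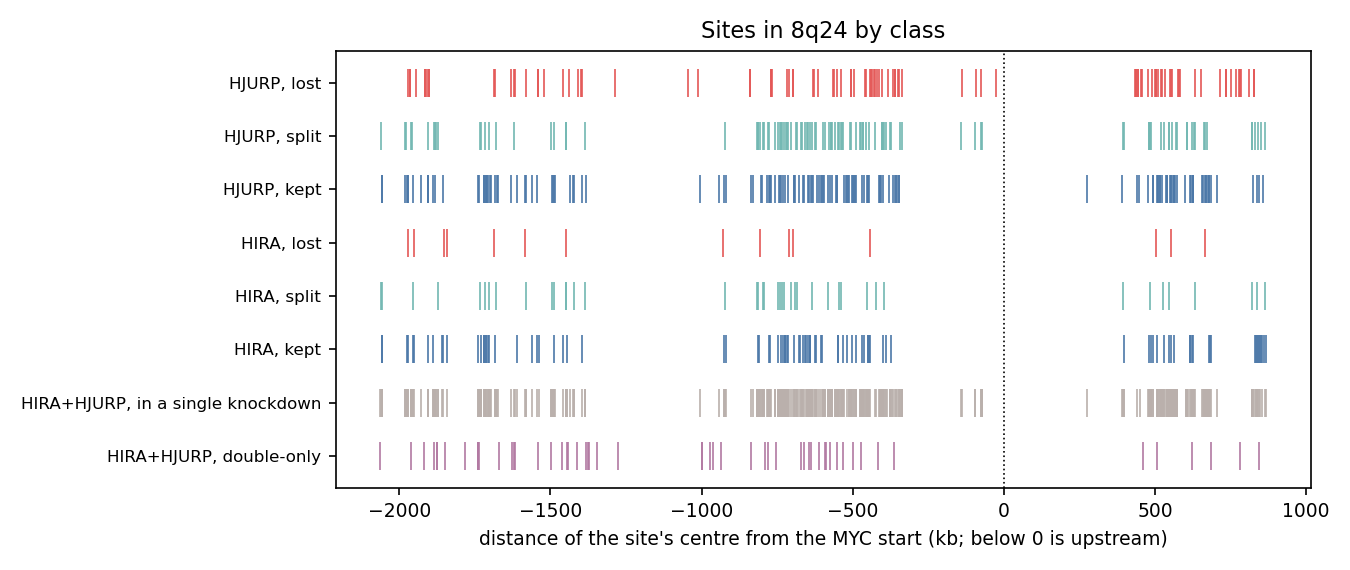
Position of each 8q24 site by class, as the distance of its centre from the MYC start in kb (values below 0 are upstream). Each tick is 1 site of the HJURP or HIRA knockdown or 1 HIRA+HJURP knockdown peak, and none lay in the gene. Classes were mixed along most of the map, apart from a run of lost sites downstream that also held a double-only peak.

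Single sites picked by width or shared bases show what the classes look like. Wider kept and lost HJURP knockdown sites lay in 8q24 than those whose sequence is printed above, which came from other chromosomes. The 3 widest lost HJURP knockdown sites all lay in 8q24 downstream of MYC. They were 2389 bp on chromosome 8 from 129204586 to 129206974 and 2219 bp from 129280284 to 129282502, both outside annotated genes, and 2136 bp from 129398822 to 129400957, over an exon of the lncRNA gene ENSG00000286034. None had a HIRA knockdown or control site, all 3 had a DAXX knockdown site, and the nearest double-knockdown peak was 2310, 710 and 687 bp away. The 3 kept HJURP knockdown sites that shared the most bases were 8784, 6211 and 5584 bp wide and lay in introns of PCAT1, LINC00861, and CASC19 with PCAT1. A single double-knockdown peak covered 98.2%, 94.6% and 98.6% of them. The site that LINC00861 holds lies on chromosome 8 from 127037691 to 127043901, and the other 2 lie from 128064983 to 128073766 and from 128138872 to 128144455.

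Among the widest lost HIRA knockdown sites was one of 2755 bp on chromosome 15 from 20570318 to 20573072, which lay in the centromere band and had a site in the HJURP, DAXX and HIRA+DAXX lists. The HJURP knockdown sites with the most pieces were the one on chromosome 16 from 33970756 to 33977315, with 9 double-knockdown peaks over 75.9% of its bases, and 2 with 8 pieces each. Those lay on chromosome 16 from 46404385 to 46409184, 18.6 kb from the centromere gap and covered to 25.8%, and on chromosome 7 from 61540489 to 61544676, covered to 48.0%. All 3 were outside annotated genes and had a site in each of the 6 lists.

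On the other arm, 1 stretch of chromosome 12 held most of the losses. Sites of the 3 lists within 1 Mb of each other were linked, a step chosen after the values were seen, and the largest of 9 groups of at least 5 sites ran from 21882899 to 27517674 on chromosome 12. It held 32 HJURP knockdown sites, of which 31 were lost and 1 was kept, and 63 HIRA knockdown sites, of which 59 were lost and 4 were kept. The double knockdown had 20 peaks in the stretch, and 16 of them were double-only. Control had no site there, DAXX had 23 and HIRA+DAXX 25. Outside this stretch 44.3% of the other HJURP knockdown sites on the other arm were lost (32.5% to 56.7%) and 44.2% of the HIRA knockdown sites (31.6% to 57.7%). Over all locations without it the lost shares were 26.1% and 26.8%.

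Each list had its own sites along the stretch. Of the 63 HIRA knockdown sites, 44 touched no site of another list, as did 17 of the 32 HJURP, 19 of the 23 DAXX, 19 of the 25 HIRA+DAXX and 15 of the 20 HIRA+HJURP knockdown sites. Over all sites of these lists the shares alone were 11.7%, 10.4%, 11.8%, 6.29% and 12.1% in the same order, and on the other arm outside the stretch 9 of 52, 11 of 61, 13 of 56, 9 of 59 and 38 of 100. HIRA knockdown sites touched an HJURP knockdown site in 12 cases and a double-knockdown peak in 4. Most sites of the 3 lists there lay in protein-coding genes. SOX5, which encodes a transcription factor, held 15 lost HIRA and 7 lost HJURP knockdown sites and 3 double-only peaks. ITPR2, an inositol trisphosphate receptor that releases calcium from internal stores, held 5 and 6 lost sites. C2CD5 held 7 lost HIRA knockdown sites. LMNTD1 held 5 lost HJURP knockdown sites, among them the arm site printed above, which spans 1176 bp from 25695945 to 25697120. SOX5 and ITPR2 each also held a kept HIRA knockdown site. Over the whole stretch 59 of 63 HIRA and 31 of 32 HJURP knockdown sites were lost, so these counts largely reflect how many sites a gene held. The only HJURP knockdown site of the stretch found again, 1748 bp from 25905569 to 25907316, lay outside annotated genes.

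**Figure D4:**
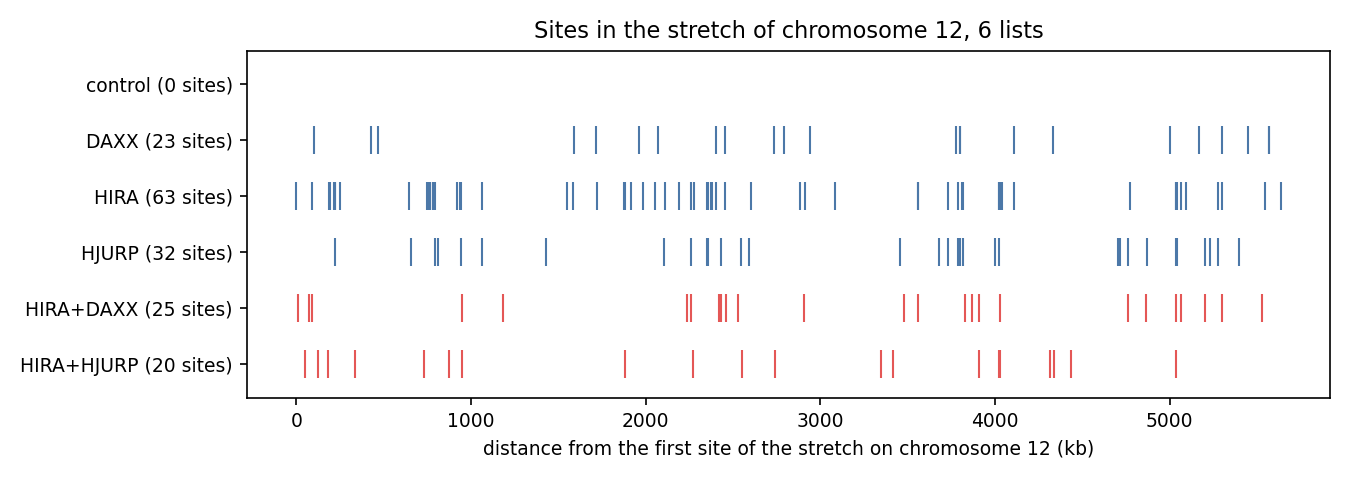
Sites of the 6 lists in the stretch of chromosome 12, as the distance in kb from its first site. Each tick is 1 site, with lists from 4 ChIP libraries in blue and from 2 in red. The HIRA knockdown had 63 sites, the HIRA+HJURP knockdown 20 and control none.

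Other groups on the arms ranged from full loss to none. On chromosome 13 from 63621144 to 63644971, 4 of 4 HJURP and 3 of 4 HIRA knockdown sites were lost, on chromosome 7 from 151975847 to 152100198, 3 of 3 and 2 of 3, and on chromosome 2 from 132980873 to 133029423, 3 of 5 and 4 of 6. These groups are small. On chromosome 10 from 127574835 to 127594218, in the protein-coding genes DHX32 and FANK1, none of the 6 HJURP and 4 HIRA knockdown sites was lost, and 10 double-knockdown peaks included 1 double-only peak. Near the end of chromosome 4, from 190194914 to 191032350, 2 of 10 HJURP and 0 of 6 HIRA knockdown sites were lost, and 10 of 23 double-knockdown peaks were double-only. Of the genes that act in CENP-A and H3.3 deposition, 16 were found in the annotation and searched for a peak in the gene body. H3-3B, which encodes H3.3, was the only one with a peak in the HJURP, HIRA or double-knockdown list. The other lists were not searched for all of these genes, and the share of all annotated genes with a peak is not given here. A HIRA knockdown site of 573 bp on chromosome 17 from 73775734 to 73776306 overlapped an exon of it. Control also had a site there, and the HJURP and double-knockdown lists had none.

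Double-only peaks lay close to single-knockdown sites at many places. Their median distance to the nearest was 2061 bp, and 154 of 385 lay within 1 kb. In 8q24 the median was 691 bp, and on the other arm it was 45404 bp. The 3 widest were 953, 835 and 699 bp, all in 8q24, on chromosome 8 from 128158222 to 128159174 in introns of CASC19 and PCAT1, from 128246928 to 128247762 in an intron of PCAT1, and from 127375307 to 127376005 outside annotated genes. Among the windows of 100 kb with the most double-only peaks, one on chromosome 4 from 49600001 to 49700000 held 16 double-only among 18 double-knockdown peaks, and 2 sites each in the HJURP and HIRA lists. The HIRA+DAXX list had 19 peaks there. Another, on chromosome 10 from 42300001 to 42400000, held 14 double-only among 45 double-knockdown peaks, with 14 HJURP and 26 HIRA knockdown sites.

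Sites lost from the double knockdown and double-only peaks were also scarcer in the lists that the classes did not use. A DAXX knockdown site was present at 50.4% of lost (44.4% to 56.3%), 88.8% of kept and 99.2% of split HJURP knockdown sites. For HIRA knockdown sites the shares were 41.6%, 86.9% and 97.8%. Control held 11.9% of lost, 35.3% of kept and 54.5% of split HJURP knockdown sites. Double-only peaks had a DAXX knockdown site at 27.3% (23.1% to 31.9%) and a HIRA+DAXX peak at 27.0%, and 191 of the 385 had a site in none of the control, DAXX and HIRA+DAXX lists. The double-knockdown peaks that touched a single-knockdown site had a DAXX knockdown site at 91.4%. Wider sites can touch more peaks of any list, and split sites were the widest.

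Gene position differed between classes along with location. Lost sites on the other arm lay in protein-coding genes in 37 of 58 HJURP and 56 of 82 HIRA cases, and double-only peaks there in 36 of 66. Kept sites there did so in 12 of 30 HJURP and 14 of 29 HIRA cases, and the other double-knockdown peaks in 24 of 54. The difference rested on the stretch of chromosome 12. Outside it 11 of 27 lost and 12 of 29 kept HJURP knockdown sites, 12 of 23 lost and 12 of 25 kept HIRA knockdown sites, and 22 of 50 double-only and 22 of 50 other double-knockdown peaks lay in protein-coding genes. In 8q24, lncRNA genes held 77.2% of lost, 79.7% of kept and 83.2% of split HJURP knockdown sites. In pericentromeric sequence, 91.2% of split and 67.2% of lost HJURP knockdown sites lay outside annotated genes, and 22.4% of the lost ones lay in pseudogenes against 5.49% of the split ones.

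Sequence was read in windows of 1000 bp centred on each site, so that classes of different width could be set side by side. Windows of close sites overlap and are not independent. The CENP-B box was searched on both strands as TTCG, 4 free bases, A, 2 free bases and CGGG, with 1 free base at either end, and 0.0630% of 28585 windows spread over the genome held it. In the centromere bands it was in 52.4% of windows at lost HJURP knockdown sites (37.7% to 66.6%), 42.0% at kept and 34.1% at split sites, and in 24 of 60 windows at lost, 37 of 100 at kept and 15 of 45 at split HIRA knockdown sites. These intervals overlap. Double-only peaks in the bands held a box in 8.00% of windows (4.40% to 14.1%), and double-knockdown peaks that touched a single-knockdown site in 31.7% (26.2% to 37.8%).

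GGAAT repeats were counted in a measure added after the data had been seen. A window was called rich when copies of GGAAT on either strand covered at least 20% of it, as 0.0525% of genome windows did. In the centromere bands 40.8% of double-only windows were rich (32.6% to 49.6%), against 11.8% of the windows at other double-knockdown peaks (8.33% to 16.4%), 13.6% at both kept and split HJURP knockdown sites, and 4.76% and 0 of the lost HJURP and HIRA knockdown sites. Without the 3 windows of 100 kb that held the most double-only peaks, the double-only share was 11.9% (6.60% to 20.5%) and that of the other double-knockdown peaks 3.13% (1.52% to 6.31%). Both shares thus fell and the double-only share remained the higher. Kept, split and lost HJURP knockdown sites then had 3 of 79, 1 of 39 and 2 of 42 rich windows, with intervals that overlapped that of the double-only peaks and one another. Kept and split HIRA knockdown sites had 5 of 92 and 1 of 40, and their intervals also overlapped that of the double-only peaks. Lost HIRA knockdown sites had 0 of 60 (0% to 6.02%), below the double-only interval. The share with a CENP-B box was 11.9% at double-only and 34.8% at other double-knockdown peaks without those windows. In pericentromeric sequence 32.8% of double-only windows (25.5% to 41.1%) and 37.3% of the other double-knockdown windows were rich in GGAAT, so double-only peaks had no excess over other double-knockdown peaks there, while lost HJURP and HIRA knockdown sites had 22.4% and 17.9%. Self-match was highest at a lag of 171 bp, the alpha satellite monomer, among lags from 50 to 400 bp. Windows not rich in GGAAT with a self-match of at least 60% at this lag, give or take 2 bp, were 17.6% of double-only windows in the bands, 16.7% of other double-knockdown windows, and 4.76% and 18.2% of lost and kept HJURP knockdown windows. Without the same 3 windows of 100 kb they were 26.2%, 18.3%, 4.76% and 20.3%. The double-only interval then overlapped that of every class but the lost HJURP knockdown sites, which numbered 42. No window in 8q24 held a CENP-B box, passed the self-match or was rich in GGAAT, in any class.

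**Figure D5:**
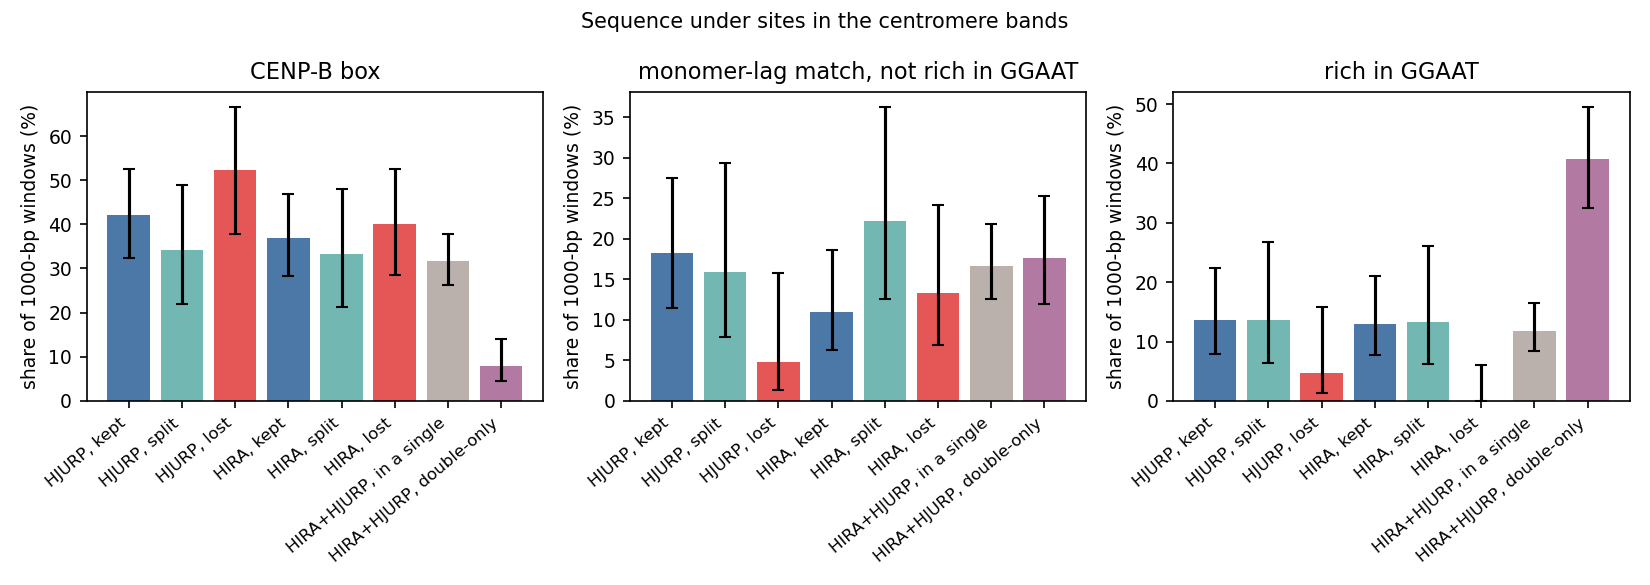
Share of 1000-bp windows in the centromere bands, in percent, that held a CENP-B box (left), matched themselves at the 171-bp lag without being rich in GGAAT (centre) or were rich in GGAAT (right), by class. Error bars are 95% Wilson intervals. Double-only peaks had the lowest share with a box, 8.00%, and the highest share rich in GGAAT, 40.8%.

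GC content differed little between the classes. The median was 37.7% at lost, 37.3% at kept and 36.9% at split HJURP knockdown sites, 35.4%, 36.2% and 36.3% at lost, kept and split HIRA knockdown sites and 37.4% at double-only peaks, against 39.8% over the genome windows. In 8q24 lost HJURP knockdown sites had a median of 39.3% and kept ones 37.1%.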

How the data were processed

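CENP-A ChIP and input libraries of SW480 cells were sequenced. Per the submitters' processing notes, trimming used Trimmomatic, alignment to hg19 used Bowtie2 2.2.6, and peak calling used MACS with the matching input, beside SAMtools and deepTools. The authors merged peaks within a condition with Bedtools and kept replicated ones. The replicate number their rule requires is larger than a double knockdown had, so single and double lists cannot have passed the same filter, and the rule for conditions with 2 libraries is not given in the sources used here. The deposited lists hold peak starts and ends only. Conditions were taken from the sample labels. Overlaps were computed base by base in Python 3.11.15 with NumPy 2.4.6 (minimum shared length 1 base), checked against bedtools 2.31.1 and tested on simulated lists. Wilson intervals came from SciPy 1.17.1. Every peak ended within its GRCh37 chromosome. Centromere bands and the 8q24 border were written from general knowledge of the hg19 band table. A centromere gap was any unsequenced stretch of 2 Mb or more that reached a band. Genes came from GENCODE release 44 lifted to GRCh37. Sequences were read with pysam 0.24.0 from an index made with samtools 1.23.1, and plots drawn with matplotlib 3.10.9. Repeat masking was not analysed here. The members and lists were chosen with earlier results of these data known. The regions named are the 3 widest lost sites of each single knockdown, the 3 HJURP knockdown sites with the most pieces, the 3 kept ones sharing the most bases, the 3 widest double-only peaks, the 3 windows of 100 kb with the most double-only peaks, and MYC. Some of these regions are not shown. Other regions were named after their values were seen. The alternatives were 50% coverage of a site, a width of at least 500 bp, merging within 1000 bp, extension by 500 bp on each side, leaving out chromosome 8 and leaving out the centromere bands.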

Additional observations from a re-analysis of the deposited data

How the results depend on the processing

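No paired analysis was possible because each condition is 1 merged list, although the labels share replicate numbers, and no replicate could be left out either. A share was taken as moved when it left the 95% Wilson interval of its main value, which happened for 21 of 30 values. When at least 50% of a site had to be covered, 53.1% of HJURP and 56.1% of HIRA knockdown sites were lost and 20.5% and 14.6% were split. With only peaks at least 500 bp wide, 58.4% and 60.7% were lost, 10.9% and 6.55% were split, and 2.86% of double-knockdown peaks were double-only. With peaks within 1000 bp merged, 13.1% and 7.22% were split, 35.4% of HIRA knockdown sites were lost and 30.0% of peaks were double-only. Extension by 500 bp gave 19.1% and 23.9% lost, 58.8% and 53.3% split and 14.6% double-only. Without chromosome 8, 36.4% of HIRA knockdown sites were lost and 29.7% of peaks were double-only, and outside the centromere bands 21.6% were double-only. The cause of these moves was not tested. The study gives library depths, but the merged lists carry none, so the part of depth in the lost class was not tested here.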
